A study of Rattus norvegicus with 8 samples.

Results

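The 10 genes described here (Sox9, Amh, Wt1, Gata4, Cldn11, Inha, Fshr, Kitlg, Tf and Gdnf) are genes known from Sertoli cells, and were measured in germ cells isolated from rat testis. Members were taken by symbol from a table of 24059 genes. Each symbol had 1 row, all 10 were detected in each of the 8 libraries, and 9 of the 10 passed the filter on low counts that left 16976 genes for testing. The study profiled polyA RNA from GFP-positive germ cells of prepubertal transgenic Sprague-Dawley rats carrying the germ cell reporter GCS-EGFP. Doxorubicin, an anthracycline that poisons topoisomerase II on DNA, was given in vivo at 5 mg/kg on postnatal day 6 to 4 rats (numbers 2, 3, 6 and 8), and 4 rats that received vehicle served as controls (numbers 1, 4, 5 and 9). Cells were collected 24 h after exposure, so all animals were of the same age, strain and reporter genotype, and the groups differed by the drug. The comparison asks whether genes of the supporting cells changed in these preparations after the drug.

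Sertoli cells are the somatic cells of the seminiferous tubule that enclose and feed the germ cells. Sox9, Wt1 and Gata4 encode transcription factors of their lineage. Immature Sertoli cells secrete anti-Müllerian hormone, and they respond to follicle-stimulating hormone through its receptor. They also supply the 2 growth factors on which spermatogonia depend, stem cell factor (Kitlg) and GDNF, whose receptors sit on the germ cells.

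Total estimated counts ran from 41665785 to 58871101 in doxorubicin libraries and from 41253848 to 57700969 in control libraries. Abundances are given as CPM (counts scaled to a common library total, with TMM factors between libraries), and 1 CPM corresponded to between 41.7 and 57.8 counts. CPM takes no account of transcript length, so shares of a summed CPM and groupings by CPM describe reads and do not rank transcript levels between genes. The germ cell identity of the preparations was visible in 18 germ cell genes, among them Ddx4 and Dazl. Their summed abundance was 4417 to 4529 CPM in doxorubicin libraries and 4338 to 4506 CPM in control libraries. The 10 Sertoli cell genes together came to 137.5 to 148.7 CPM in doxorubicin libraries and 140.4 to 151.4 CPM in control libraries.

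**Figure D1:**
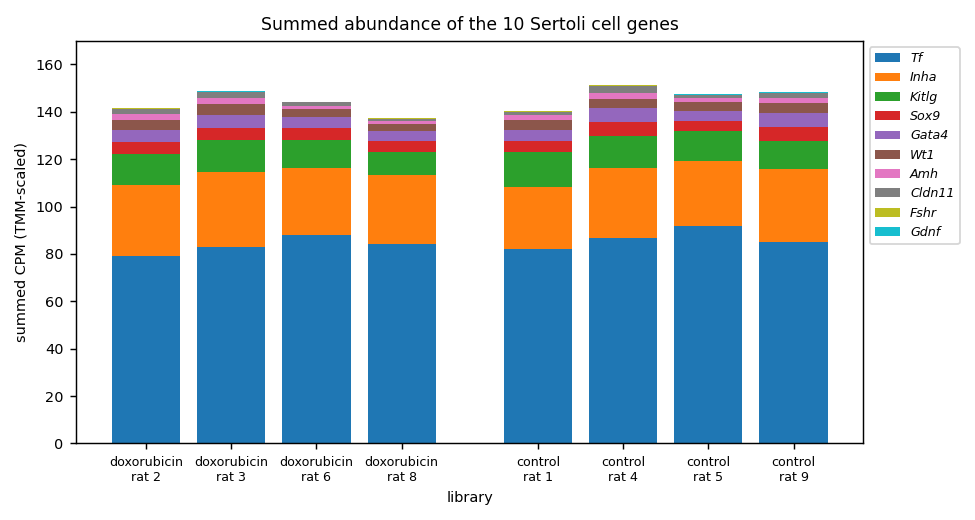
Stacked bars give the summed CPM of the 10 Sertoli cell genes in each library, doxorubicin rats on the left and control rats on the right. The totals lie between 137.5 and 151.4 CPM, and Tf makes up the largest block in each bar.

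The sum was carried by few genes. Tf provided 58.6% of its reads, and the 3 genes above 10 CPM on average were Tf, Inha and Kitlg. The other 7 genes together came to 14.5 to 20.5 CPM in doxorubicin libraries and 15.6 to 21.8 CPM in control libraries. The mean sum of all 10 genes was 143.0 ± 4.71 CPM after doxorubicin and 146.9 ± 4.64 CPM in controls (SD, n = 4 each), a difference of -3.82 CPM that is smaller than either SD. In such bulk libraries, fewer cells of a type and less RNA per cell cannot be told apart.

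After doxorubicin no Sertoli cell gene passed the test. Of the 9 genes tested, 0 had an edgeR adjusted p (quasi-likelihood test, Benjamini-Hochberg) below 0.05, against 0.112% of all genes tested. At an unadjusted p below 0.05 the count was also 0, against 6.76% of all genes. DESeq2 called 0 of the 10 (0.959% of all genes) and limma-voom called 0 of the 9 (0.141% of all genes). In each of the 10 genes the doxorubicin and control libraries overlapped, while 4.72% of all genes tested had groups that did not overlap. The log2 fold change was negative for 8 of the 9 genes, against 52.2% of all genes, with a median of -0.08 (-0.0047 over all genes). That lean rested on single rats: without control rat 4 the number of negative genes was 5 of 9 with a median of -0.01, and without doxorubicin rat 8 it was 5 of 9 with a median of -0.03.

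**Figure D2:**
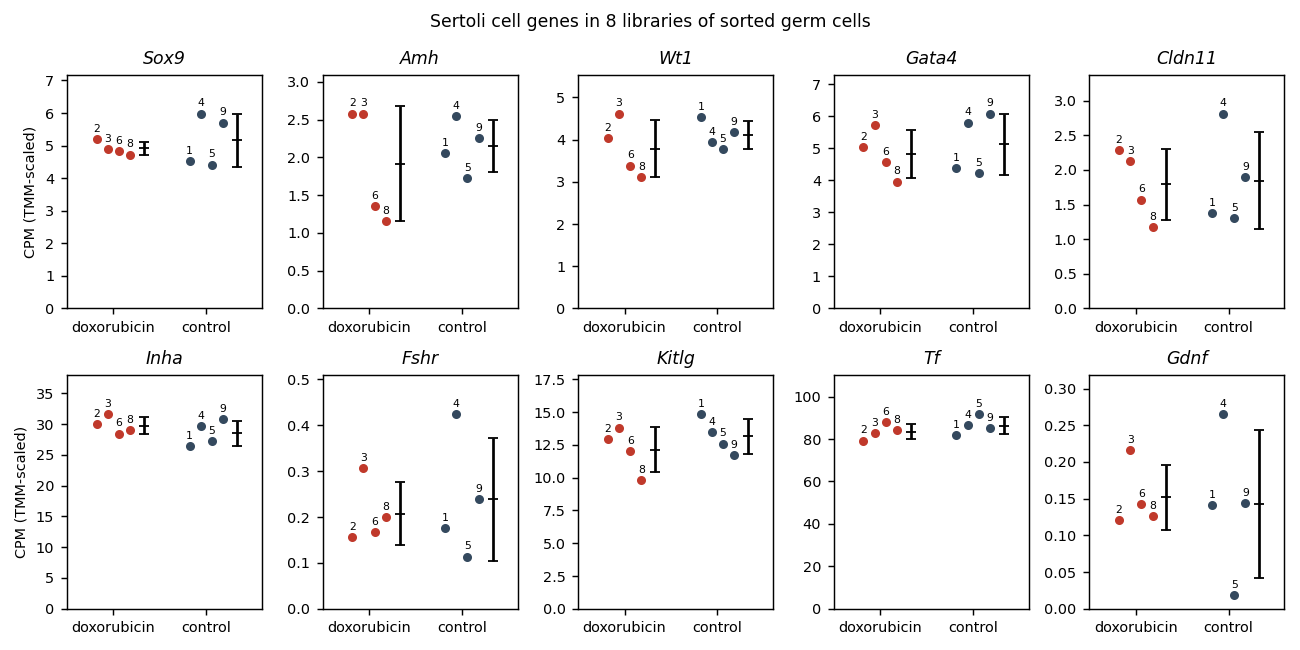
Each panel plots the CPM of 1 Sertoli cell gene in the 4 doxorubicin libraries (red, left) and the 4 control libraries (dark, right), with rat numbers over the points and the mean ± SD beside them. The groups overlap in all 10 panels, and control rat 4 has the highest point for Sox9, Cldn11, Fshr and Gdnf.

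The 3 lineage transcription factors were present in every library. Sox9 (ENSRNOG00000002607.7), which drives Sertoli cell fate in the fetal testis, measured 5.21, 4.89, 4.84 and 4.72 CPM in doxorubicin rats 2, 3, 6 and 8, against 4.52, 5.98, 4.42 and 5.71 CPM in control rats 1, 4, 5 and 9. The 4 treated rats lay inside the control range, and control rats 4 and 9 were the high ones. Its log2 fold change was -0.07 ± 0.12 (SE, edgeR adjusted p = 0.969). Gata4 (ENSRNOG00000010708.8), a zinc finger factor of somatic gonad cells, measured 5.03, 5.74, 4.58 and 3.96 CPM in doxorubicin rats and 4.38, 5.81, 4.23 and 6.09 CPM in control rats in the same order. Control rats 4 and 9 were again high, doxorubicin rat 8 was the lowest of all, and the log2 fold change was -0.08 ± 0.15 (edgeR adjusted p = 0.972). Wt1 (ENSRNOG00000013074.8), the zinc finger factor first known from Wilms tumour, measured 4.03, 4.62, 3.38 and 3.11 CPM in doxorubicin rats and 4.54, 3.95, 3.77 and 4.17 CPM in control rats. Doxorubicin rat 3 was the highest and doxorubicin rat 8 the lowest, and the log2 fold change was -0.12 ± 0.14 (edgeR adjusted p = 0.952).

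Among the hormones and the hormone receptor, Amh spread most within the treated rats. Amh (ENSRNOG00000019377.3) encodes anti-Müllerian hormone, which makes the female duct regress in the male fetus. It measured 2.58, 2.58, 1.36 and 1.16 CPM in doxorubicin rats 2, 3, 6 and 8, against 2.06, 2.55, 1.72 and 2.25 CPM in control rats 1, 4, 5 and 9. Doxorubicin rats 2 and 3 were above every control rat and doxorubicin rats 6 and 8 below every control rat, so that the treated mean was 1.92 ± 0.767 CPM and the control mean 2.15 ± 0.346 CPM (SD, n = 4 each). The log2 fold change was -0.15 with a 95% interval from -0.71 to 0.41 (edgeR adjusted p = 0.967). Inha (ENSRNOG00000020097.5), the alpha subunit of inhibin, which restrains pituitary FSH release, had the one positive log2 fold change, 0.06 ± 0.06 (edgeR adjusted p = 0.942). It measured 29.9, 31.7, 28.4 and 29.0 CPM in doxorubicin rats and 26.4, 29.6, 27.2 and 30.8 CPM in control rats, with the highest value in doxorubicin rat 3 and the lowest in control rat 1. Fshr (ENSRNOG00000016783.7), the FSH receptor, rested on few reads, with 9, 17, 7 and 11 counts in doxorubicin rats and 10, 24, 6 and 10 counts in control rats. Control rat 4 and doxorubicin rat 3 were high, and the interval of its log2 fold change of -0.20 ran from -1.12 to 0.72 (edgeR adjusted p = 0.979).

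The promoters of Amh and Inha are shown because, of the 8 member promoters found, these 2 held a GATA word (listed below). That of Cldn11 is shown because it had the highest r with Gata4, a factor known in the mouse to act at the Amh promoter. Across the libraries Gata4 had a positive r with all 3 genes. It also had one with Fshr (0.715), Gdnf (0.592), Wt1 (0.579) and Kitlg (0.342), whose windows held no GATA word and are not shown. Its r with Tf, also without the word, was -0.198. Over the 8 libraries none of these correlations passed adjustment, as set out further on. The sequences are RefSeq's, on GRCr8, from 250 bases before to 50 bases after the gene start, printed 5′ to 3′ in the direction of transcription. Capitals mark the GATA words (the word AGATAA, the word AGATAG, the word TGATAA and the word TGATAG) and the SF1 word (AAGGTCA), searched on both strands.
Amh, chr7:9559818-9560117, minus strand: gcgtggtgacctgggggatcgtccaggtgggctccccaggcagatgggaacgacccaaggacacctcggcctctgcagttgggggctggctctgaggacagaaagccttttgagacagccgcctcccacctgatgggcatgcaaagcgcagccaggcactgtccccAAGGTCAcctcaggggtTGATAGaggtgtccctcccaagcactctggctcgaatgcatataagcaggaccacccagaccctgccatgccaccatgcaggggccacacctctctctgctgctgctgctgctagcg
Inha, chr9:84442859-84443158, plus strand: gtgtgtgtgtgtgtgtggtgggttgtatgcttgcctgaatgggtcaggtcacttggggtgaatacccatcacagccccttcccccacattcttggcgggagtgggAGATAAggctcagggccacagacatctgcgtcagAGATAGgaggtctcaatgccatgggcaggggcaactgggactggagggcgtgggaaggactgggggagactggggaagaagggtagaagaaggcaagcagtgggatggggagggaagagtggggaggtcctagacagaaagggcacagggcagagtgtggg
Cldn11, chr2:114149490-114149789, minus strand: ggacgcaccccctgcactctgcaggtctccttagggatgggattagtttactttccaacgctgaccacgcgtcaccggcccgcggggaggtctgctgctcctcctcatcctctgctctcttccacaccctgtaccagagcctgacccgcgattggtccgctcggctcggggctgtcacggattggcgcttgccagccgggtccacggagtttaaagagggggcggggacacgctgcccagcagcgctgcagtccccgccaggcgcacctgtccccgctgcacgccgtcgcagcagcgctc

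The Amh window held 1 SF1 word, starting 84 bases before the gene start, and 1 GATA word, starting 67 bases before it. The Inha window held 2 GATA words, starting 145 and 111 bases before the gene start, and the Cldn11 window held neither word. Promoters were found for 8 of the 10 genes, the others being Sox9 and Gata4. Of these 8, a GATA word was in 2 (Amh and Inha), against 30.3% of all 33469 promoters, and the SF1 word in 1 (Amh), against 4.61%. A SOX word (AACAAT, both strands) was in 0 of the 8, against 11.7%. The GATA, SF1 and SOX words did not overlap one another in these windows. These matches describe letters in a window and do not show binding.

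The 2 growth factors for germ cells did not pass the test either. Kitlg (ENSRNOG00000005386.9), stem cell factor, the ligand of the receptor Kit, measured 13.0, 13.8, 12.0 and 9.81 CPM in doxorubicin rats 2, 3, 6 and 8, against 14.9, 13.5, 12.6 and 11.7 CPM in control rats 1, 4, 5 and 9. Control rat 1 was the highest and doxorubicin rat 8 the lowest, and the log2 fold change was -0.12 ± 0.11 (edgeR adjusted p = 0.934). Gdnf (ENSRNOG00000012819.6), the ligand that maintains spermatogonial stem cells, was at the limit of detection and did not pass the filter on low counts. It had 7, 12, 6 and 7 counts in doxorubicin rats and 8, 15, 1 and 6 counts in control rats. Fitted without the filter, its log2 fold change was 0.09 with an interval from -1.05 to 1.22 (edgeR adjusted p = 0.998). Control rat 4 was the highest and control rat 5, with its single count, the lowest.

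The receptors for these factors and for transferrin sit on germ cells. Ret, the signalling receptor for GDNF, measured 528.9 ± 65.6 CPM after doxorubicin and 536.5 ± 18.1 CPM in controls (SD, n = 4 each). Its co-receptor Gfra1 measured 131.5 ± 5.63 CPM after doxorubicin and 129.5 ± 10.6 CPM in controls. Kit measured 72.9 ± 11.1 CPM after doxorubicin and 82.6 ± 8.60 CPM in controls. Tfrc, the transferrin receptor through which cells take up iron, measured 232.0 ± 12.2 CPM after doxorubicin and 245.2 ± 6.07 CPM in controls. None of these 4 receptors passed edgeR (0.112% of all genes did), with adjusted p of 0.988 for Ret, 0.98 for Gfra1, 0.86 for Kit and 0.787 for Tfrc. The count was also 0 at an unadjusted edgeR p below 0.05 (6.76% of all genes) and by DESeq2 (0.959%).

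The junction gene and the iron carrier differed in precision. Cldn11 (ENSRNOG00000010263.6), the claudin of Sertoli cell tight junctions at the blood-testis barrier, measured 2.28, 2.13, 1.57 and 1.18 CPM in doxorubicin rats 2, 3, 6 and 8, against 1.37, 2.82, 1.31 and 1.89 CPM in control rats 1, 4, 5 and 9. Its highest value, in control rat 4, was 2.39 times its lowest, in doxorubicin rat 8, and the log2 fold change was -0.04 with an interval from -0.64 to 0.56 (edgeR adjusted p = 0.994). Tf (ENSRNOG00000030625.7), transferrin, which Sertoli cells secrete to bring iron to germ cells and which the liver makes for the blood, measured 79.3, 82.7, 87.8 and 84.3 CPM in doxorubicin rats and 81.9, 86.5, 91.9 and 85.2 CPM in control rats. The 8 libraries lay within 1.16 times of each other, with the lowest value in doxorubicin rat 2 and the highest in control rat 5. The log2 fold change was -0.05 with an interval from -0.15 to 0.05 (edgeR adjusted p = 0.935), the narrowest interval of the 9 genes.

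**Figure D3:**
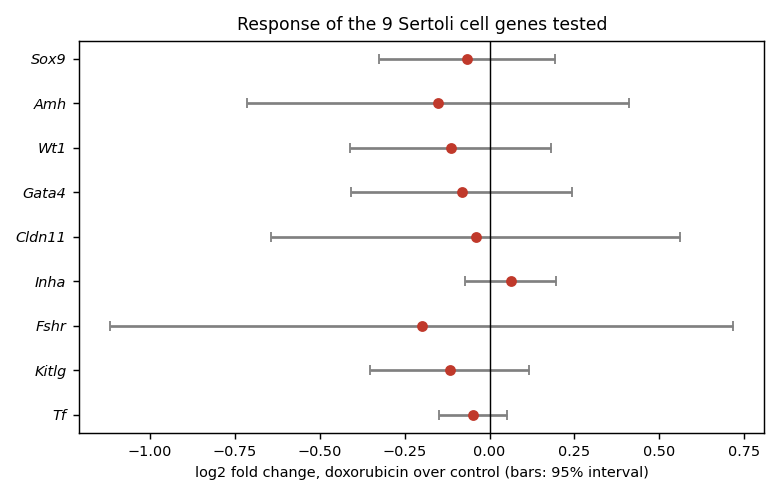
Points give the log2 fold change of doxorubicin over control for the 9 Sertoli cell genes tested, and bars give the 95% interval from edgeR. Every interval crosses 0, from the narrow one of Tf (-0.15 to 0.05) to the wide one of Fshr (-1.12 to 0.72).

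Across the 8 libraries, regardless of treatment, the genes differed in how much they varied. The coefficient of variation of CPM was 4.58% for Tf and 6.01% for Inha, where counting error alone gives 1.5% and 2.56%. It was 11.1% for Sox9, 12.1% for Kitlg, 13.2% for Wt1 and 16.3% for Gata4, with counting errors of 6.17%, 3.88%, 6.95% and 6.21%. Amh and Cldn11 varied by 27.8% and 31.1%, where counting gives 9.65% and 10.2%. For Fshr and Gdnf the variation was 45.0% and 49.1%, where counting gives 29.2% and 35.9%.

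The 7 genes below 10 CPM on average (Sox9, Amh, Wt1, Gata4, Cldn11, Fshr and Gdnf, a grouping made after their values were seen) tended to be high in the same libraries. All 21 pairs among them had a positive Pearson r on log2 CPM, with a median of 0.62 and a range from 0.15 to 0.85. Over the 45 pairs of all 10 genes, 35 were positive, the median was 0.46, and 12 (26.7%) reached 0.7. Over all 144083800 pairs of genes tested the median was -0.0001 and 4.52% reached 0.7. These are correlations over the same 8 libraries, so the pairs share libraries and scaling. Under two-sided exact permutation tests, 12 of the 45 pairs had p below 0.05, and 7 had it without control rat 4. The share of all gene pairs with p below 0.05 was not computed. After Benjamini-Hochberg adjustment over the 45 pairs, 0 passed. Without control rat 9, 2 pairs passed, Wt1 with Kitlg (r = 0.921) and Gata4 with Cldn11 (r = 0.945, both exact permutation p = 0.0357 after adjustment).

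**Figure D4:**
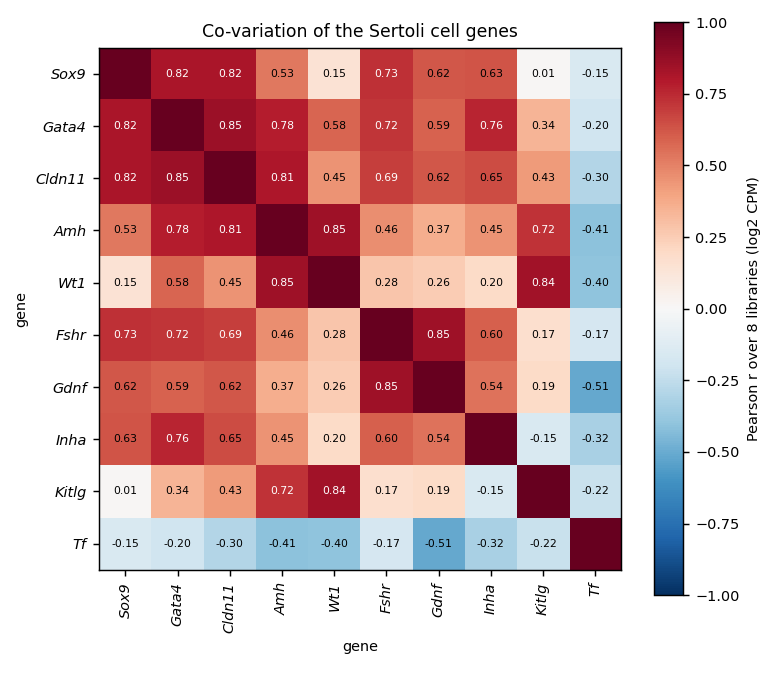
The grid gives Pearson r over 8 libraries on log2 CPM for each pair of the 10 Sertoli cell genes, red for positive and blue for negative. The block from Sox9 to Gdnf is red throughout, and the row of Tf is blue throughout, though its value with Gdnf rests on 2 libraries.

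Gata4 and Cldn11 had the highest correlation, r = 0.854 (exact permutation p = 0.0125, adjusted 0.105) and Spearman's rho = 0.833 (exact permutation p = 0.0154, adjusted 0.138). Without the 2 libraries farthest from the median of Gata4 (control rat 9 and doxorubicin rat 8) r was 0.925. In the next pairs, the 2 libraries left out were control rats 4 and 9 for those with Sox9. They were doxorubicin rats 6 and 8 for those with Amh, and control rat 9 and doxorubicin rat 8 for Gata4 with Inha. Sox9 with Cldn11 gave r = 0.818 (exact permutation p = 0.0137, adjusted 0.105; rho = 0.857, p = 0.0107, adjusted 0.138) and 0.812 without its 2 farthest libraries. Amh with Cldn11 gave r = 0.811 (exact permutation p = 0.0163, adjusted 0.105; rho = 0.833, p = 0.0154, adjusted 0.138) and 0.901 without them. Sox9 with Gata4 gave r = 0.818 (exact permutation p = 0.0148, adjusted 0.105; rho = 0.881, p = 0.00724, adjusted 0.138) and 0.611 without them. Gata4 also varied with Amh (r = 0.783, exact permutation p = 0.0269, adjusted 0.151; rho = 0.714, p = 0.0576, adjusted 0.236; 0.748 without the 2 farthest libraries). With Inha, Gata4 gave r = 0.761 (exact permutation p = 0.0319, adjusted 0.159; rho = 0.714, p = 0.0576, adjusted 0.236) and 0.873 without the 2 farthest.

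The remaining pairs with high values included Wt1 and Kitlg. Amh with Wt1 gave r = 0.851 (exact permutation p = 0.00883, adjusted 0.105; rho = 0.786, p = 0.0279, adjusted 0.209), but 0.334 without doxorubicin rats 6 and 8, the 2 libraries farthest from the median of Amh, so this relation rests on them. The same 2 rats carried Amh with Kitlg (r = 0.723, exact permutation p = 0.0373, adjusted 0.165; rho = 0.619, p = 0.115, adjusted 0.313), where r without them was 0.116. Wt1 with Kitlg gave r = 0.841 (exact permutation p = 0.00719, adjusted 0.105; rho = 0.714, p = 0.0576, adjusted 0.236) and 0.584 without the same 2 rats. Fshr with Gdnf gave r = 0.849 (exact permutation p = 0.00744, adjusted 0.105; rho = 0.905, p = 0.00456, adjusted 0.138), and 0.805 without its 2 farthest libraries, at no more than 24 counts per library.

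Tf did not follow them. Its r with each of the other 9 genes was negative, with a median of -0.30 and a range from -0.51 to -0.15, and none of the 9 had an exact permutation p below 0.05. The lowest value, with Gdnf (r = -0.511, exact permutation p = 0.197, adjusted 0.386), rested on control rat 5 and doxorubicin rat 2, without which r was 0.119, and rho was 0.048 (exact permutation p = 0.935, adjusted 0.956). Inha followed the group in part, with 7 of 9 values positive and a median of 0.54. Kitlg had 7 positive values and a median of 0.19, and its value with Inha was -0.15.

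**Figure D5:**
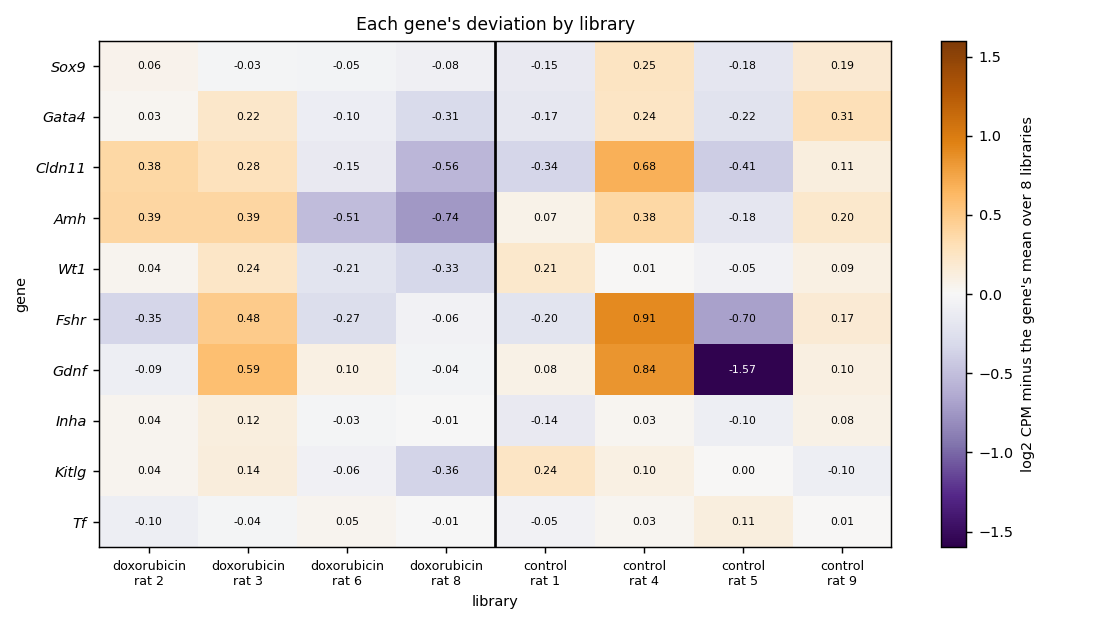
Each cell gives the log2 CPM of a Sertoli cell gene in 1 library minus that gene's mean over the 8 libraries, doxorubicin rats left of the line and control rats right of it. Control rat 4 is above the mean for all 10 genes and doxorubicin rat 8 below it for all 10, while the Tf row stays between -0.10 and 0.11.

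The libraries that were high or low belonged to both groups. The mean standardized log2 CPM of the 9 genes tested was 0.11, 0.67, -0.43 and -0.98 in doxorubicin rats 2, 3, 6 and 8, and -0.29, 0.91, -0.49 and 0.50 in control rats 1, 4, 5 and 9. By this mean, the highest library (control rat 4) and the lowest (doxorubicin rat 8) had similar depths, at 55768821 and 55783197 counts. Over the 7 genes below 10 CPM alone, control rat 5 was the lowest (-1.04), and doxorubicin rat 8 was at -0.96. Transcripts encoded in mitochondrial DNA took up 9.23%, 7.37%, 7.75% and 8.20% in doxorubicin rats and 8.63%, 7.75%, 8.67% and 7.47% of counts in control rats in the same order. The 3 libraries with the highest Sertoli values (doxorubicin rat 3 and control rats 4 and 9) had mitochondrial shares from 7.37% to 7.75%. Doxorubicin rat 6, among the low libraries, also had 7.75%, and the part of this in the result was not tested.

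Rats were split by number for this re-analysis into 2 sets, 1 to 4 and 5 to 9, with 2 treated and 2 control rats in each. The labels name no such sets and do not say whether these rats were handled apart. Kitlg measured 13.0 to 14.9 CPM in rats 1 to 4 and 9.81 to 12.6 CPM in rats 5 to 9. It was the one gene of the 10 whose sets did not overlap, against 9.29% of all genes tested. Within rats 1 to 4, Amh averaged 2.58 CPM after doxorubicin and 2.30 CPM in controls (log2 difference 0.16), and within rats 5 to 9 it averaged 1.26 CPM after doxorubicin and 1.99 CPM in controls (-0.66). Differences of Wt1, Gata4 and Cldn11 also had opposite signs in the sets, at 0.03, 0.08 and 0.08 in rats 1 to 4 and -0.29, -0.27 and -0.22 in rats 5 to 9. So did those of Inha, Fshr and Gdnf, at 0.14, -0.38 and -0.27 in rats 1 to 4 and -0.02, 0.05 and 0.73 in rats 5 to 9. Sox9 (-0.06 and -0.08), Kitlg (-0.08 and -0.16) and Tf (-0.06 and -0.04) kept 1 sign. With 2 rats a group in each set, no test of these differences was made. With 4 libraries a set, correlations were not computed within sets. After the set means were removed from each gene, the median r of the 45 pairs was 0.44, and after the group means were removed it was 0.50.

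Other Sertoli cell genes were read from a wider list of 34, of which 33 were in the table and all 33 were tested. edgeR called 0 over all genes (0.112% of all genes tested), DESeq2 called 1 higher (0.959%), and limma-voom called 0 (0.141%). Unadjusted p was below 0.05 for 1 higher and 1 lower gene, or 2 of 33 against 6.76% of all genes, and the same 2 had groups that did not overlap, against 4.72%. These shares are near those of all genes, so the 2 genes are given as values only. The median log2 fold change was 0.05, with 20 positive and 13 negative. The gene that DESeq2 called was Hsd17b1, a steroid dehydrogenase that makes estradiol. It measured 2.80, 1.32, 0.88 and 1.27 CPM in doxorubicin rats 2, 3, 6 and 8. In control rats 1, 4, 5 and 9 it measured 0.33, 0.69, 0.47 and 0.46 CPM. All treated rats were above all controls, with doxorubicin rat 2 the highest, and the log2 fold change was 1.69 ± 0.36 (edgeR adjusted p = 0.133, DESeq2 adjusted p = 0.00159, limma-voom adjusted p = 0.19). Fgf2, a growth factor, had groups apart in the other direction, at 0.641 ± 0.0706 CPM after doxorubicin and 1.08 ± 0.198 CPM in controls (SD, n = 4 each), and the log2 fold change was -0.74 ± 0.20 (edgeR adjusted p = 0.265, DESeq2 adjusted p = 0.207).

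The next in order of p in the wider list did not reach an unadjusted p of 0.05. The hedgehog ligand Dhh had a log2 fold change of 0.45 ± 0.22, the keratin Krt8 one of -0.48 ± 0.26, and Cyp26b1, which breaks down retinoic acid, one of 0.28 ± 0.18 (edgeR adjusted p = 0.784, 0.80 and 0.851). The 5 genes of this list with the most counts were the junction scaffold Tjp1, the transcription factors Etv5 and Dmrt1, the Notch ligand Jag1 and the protease Ctsl. Their log2 fold changes ran from -0.06 for Ctsl to 0.14 for Jag1. Spermatogonia are known to express Etv5 and Dmrt1 too.

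Genes outside the 10 were set against the mean standardized profile of the 9 genes tested, as a description over 8 libraries. Among 13918 other genes with at least 1 CPM on average, the 5 most alike with a symbol were Vim (r = 0.964), Acsbg1 (0.955), Rnf133 (0.954), Sorbs3 (0.938) and Zfp438 (0.937), and 23 genes had r of 0.9 or more. Vim, the intermediate filament of Sertoli and stromal cells, is also in the wider Sertoli list. From that list Inhbb, the inhibin beta B subunit (r = 0.927), Nr5a1, which encodes SF1 (0.894), and the gap junction gene Gja1 (0.885) were close as well, the last 3 picked after their values were seen. The wider list as a whole had 20 of 33 positive values and a median of 0.228. Over all genes tested 8366 of 16976 were positive, with a median of -0.007. The lowest values in the wider list were those of Defb36 (-0.795), Ctsl (-0.531) and Shbg (-0.439).

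Markers of other somatic cells moved with the same profile in part. Of the peritubular and stromal list, 10 of 11 genes tested had a positive r with it, with a median of 0.275 and the highest value for the collagen gene Col3a1 (0.858). The summed level of the 12 genes of this list was 60.4 to 81.6 CPM in doxorubicin libraries and 65.9 to 82.4 CPM in control libraries. Of the Leydig list, 7 of 10 were positive, with a median of 0.464 and the highest value for Cyp11a1, the first enzyme of steroid synthesis (0.785). The Leydig sum over the 11 genes measured was 137.2 to 148.8 CPM in doxorubicin libraries and 140.0 to 145.6 CPM in control libraries. Dlk1 contributed 47.2% of it. The median was -0.169 for the 7 endothelial genes tested, with 2 positive. The sum over the 9 endothelial genes measured was 94.6 to 105.7 CPM in doxorubicin libraries and 83.8 to 99.7 CPM in control libraries. Pecam1 contributed 76.2% of it. For the 7 macrophage genes tested the median was 0.031, with 4 positive. The sum over the 12 macrophage genes measured was 7.0 to 7.53 CPM in doxorubicin libraries and 5.78 to 6.67 CPM in control libraries. For 6 erythroid genes the median was 0.247, with 4 positive. The 18 germ cell genes had a median of 0.037, with 10 positive. Over all genes tested the median was -0.007, with 8366 of 16976 positive. Of the lists, 11 of 12 Leydig, 9 of 10 endothelial and 7 of 8 erythroid genes were measured. No measured marker was at 0 in all libraries, but the lowest, the macrophage gene Adgre1, had 0 or 1 counts in each. The part of these cells in the co-variation was not tested.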

How the data were processed

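Per the labels' protocols, RNA was isolated with the PicoPure kit, and polyA-enriched libraries were made from samples with RIN above 8. The authors deposited gene-level estimated counts without normalization for 8 libraries. Of the submitters' processing notes, kallisto 0.48.0 and featureCounts are quantification tools, fastp 0.23.2 and Trimmomatic are read trimmers, and the build named is rn6. The table itself names no build, and some of its Ensembl identifiers may belong to a later annotation. Which of them made the deposited values is not stated. No source used here gives the strand setting or the treatment of multi-mapped reads, so overlapping and antisense genes are uncertain.

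The members and lists were chosen with earlier results of these data known. Estimated counts were rounded. Genes kept by filterByExpr were tested with edgeR 4.0.16 in R 4.3.3 (TMM, robust glmQLFit, glmQLFTest, no covariate), with Benjamini-Hochberg adjustment over 16976 genes. DESeq2 1.42.0, limma-voom (limma 3.58.1), other scalings, filters and left-out libraries were alternatives. SE was derived from the fold change and the F statistic, with 95% intervals. Correlations used log2 CPM with a prior count of 2, tested by enumerating all pairings of the 8 libraries. By its label each library came from a different rat, and so counted as a separate sample. Every pair of libraries differed by more than sampling noise, which does not by itself show that they are independent. P-values of the group comparison set the difference between groups against the spread between samples within a group. Counting errors cover counting only, since no molecular identifiers are described.

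Genes named were all 10 members, 4 germ cell receptors, the 5 with the smallest p and the 5 with the most counts from the wider Sertoli list, and the 5 genes most like the members' profile. Other genes are named only where the text says how they were picked or as the highest or lowest of a list.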

Additional observations from a re-analysis of the deposited data

How the results depend on the processing

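No Sertoli cell gene was called in any alternative that gave it an adjusted p. The 16 alternatives were limma-voom, DESeq2, scaling by RLE or by library size alone, 2 other filters, a fit that was not robust, rat-number set as a covariate, and each of the 8 libraries left out. Fshr was removed by the filter at a mean of 1 CPM, and Gdnf was tested by DESeq2 and without a filter but not in every alternative. Over all genes the count of 19 calls became 170 with DESeq2, 53 without robust fitting and 61 with rat-number set as a covariate. It ran from 1 to 62 when single libraries were left out: leaving out doxorubicin rats 2, 3, 6 and 8 gave 62, 18, 11 and 1, and leaving out control rats 1, 4, 5 and 9 gave 11, 2, 1 and 3. The difference in summed CPM stayed between -5.96 and -0.96 over its alternatives. The number of member pairs that passed adjustment was 0, and 0 to 2 with a library left out. The cause of these shifts was not tested. Log2 fold changes changed sign in 3 alternatives for Cldn11, in 2 for Gata4, and in 1 each for Sox9, Amh and Fshr. Removing rat-number set means before correlation was chosen after seeing the data. Depth limits Fshr and Gdnf most, at 24 and 15 counts or fewer per library. No paired analysis was possible because the groups share no rat number.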
